A study of Mus musculus with 9 samples.

Results

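The gene group described here is p53 and its target genes, 30 mouse genes chosen as a list of symbols. The rule itself uses no measured value, but the list was drawn up with earlier results of these data known. All 30 were among the 24421 gene symbols of every library, and 29 of them passed a filter on low values that left 14215 genes for testing. The material was 9 liver tumors from C57BL/6 mice at 11 weeks of age, 3 each of S7HP+Snail, S7HP and LHP, profiled by QuantSeq, which reads a short tag near the 3′ end of each polyadenylated transcript. The series addresses TGF-β, Smad and Snail signaling. Its file headers tie S7HP to Smad7, a brake on TGF-β receptors from the Smad family, S7HP+Snail to Smad7 with Snail, a transcriptional repressor of epithelial genes, and LHP to a Luc construct in place of Smad7. The labels do not spell out the letters H and P. As background from outside the labels, in a published mouse model of this kind they stand for an activated HRAS and a short hairpin RNA against p53, delivered to hepatocytes on transposon plasmids. If that reading holds here, all 3 groups share both, and none of the comparisons is with tumors of intact p53; a knockdown was not tested. In bulk tumors the levels also include stromal and immune cells of the host.

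The protein p53 is a transcription factor that is kept scarce in unstressed cells by the ubiquitin ligase Mdm2 and its relative Mdm4. DNA damage, oncogene activity and other stresses free it from them, and it then binds a paired decamer sequence near its target genes and raises their transcription. The targets stop the cell cycle, start apoptosis, restrain growth signaling, repair DNA and, through Mdm2, switch p53 off again. In liver tumors the pathway is often disabled, by mutation of the gene or by excess of its inhibitors.

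The group was chosen by symbol, and matches to the p53 consensus are shown here for some members where an annotated promoter holds them. RefSeq promoters (GRCm38.p6, 250 bases before to 50 after each start) were matched by symbol for 23 of the 30 members, and Pmaip1, Perp, Trp53inp1, Zmat3, Tnfrsf10b, Rrm2b and Ddb2 were not in that table. The p53 decamer consensus reads the same on both strands, and an exact match was found for 10 of 23 members (43.5%), against 2582 of 27025 genes with a promoter in the table (9.55%). A pair of adjoining decamers with at most 2 mismatches, and none at the C and G of either core, was found for 2 of 23 members (8.7%) and for 106 of 27025 genes (0.392%). Those 2 members, Cdkn1a and Ccng1, are also counted among the 10, since a matching decamer lies inside their pair. The matches are printed 5′ to 3′ in the gene's direction with 10 flanking bases, and capitals mark the matching decamer or pair.
Cdkn1a, chr17:29090918-29090957, + strand: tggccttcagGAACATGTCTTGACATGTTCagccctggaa
Ccng1, chr11:40755452-40755491, - strand: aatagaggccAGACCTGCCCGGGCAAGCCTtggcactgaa
Mdm2, chr10:117710925-117710954, - strand: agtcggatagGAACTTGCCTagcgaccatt
Bax, chr7:45467080-45467109, - strand: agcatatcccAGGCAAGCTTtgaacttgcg
Trp53, chr11:69580274-69580303, + strand: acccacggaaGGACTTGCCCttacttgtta
The Cdkn1a and Ccng1 pairs each carry 1 mismatch. Of the members that passed a test in any comparison below, 4 were in the promoter table (Btg2, Bbc3, Gdf15 and Phlda3) and 0 held an exact decamer in these 300 bases. The other 19 members in the table, among them the untested Sesn2, included 10 with an exact decamer. With only 4 called genes in the table, these counts were not compared. A match is a description of the letters, and a missing match says only that they are not in this window.

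Values are the deposited log2(normalized count + 1), on which a difference of 1 is a doubling, and which understates the changes of genes near 0. The 9 libraries have nearly the same total, 19910396 to 19911234 normalized counts, because the authors' normalization made them so, and sequencing depth per library is unknown. Between 31.7% and 34.4% of symbols were listed at 0. The third lowest value above 0, which would be 3 reads if the lowest values are successive read counts, lay between 1.22 and 2.64 on the log2 scale, so every tested member was well above it on average (lowest mean 5.43, for Eda2r). Pearson correlations of library pairs, taken over tested genes (not independent of each other), were 0.864 to 0.900 within S7HP+Snail, 0.923 to 0.936 within S7HP and 0.939 to 0.945 within LHP. Whether each tumor came from its own animal is not in the labels, and the p-values reflect only how these samples vary, which may be technical. Smad7 itself averaged 7.36 ± 0.62 in S7HP+Snail, 6.52 ± 0.27 in S7HP and 10.07 ± 0.52 in LHP, and Snai1, the Snail gene, averaged 8.10 ± 0.69 in S7HP+Snail, 6.48 ± 0.39 in S7HP and 10.69 ± 0.66 in LHP (SD, n = 3 each). Smad7 was thus lower in the 6 tumors labelled as carrying it than in LHP, and Snai1 was also highest in LHP, whose label names no Snail. Whether 3′ tags of the constructs are counted on these genes is not known, so the levels do not check the labels. Groups, and phrases such as "with Smad7" or "added Snail", follow the labels throughout. Alb, the albumin gene that defines hepatocytes, averaged 15.99 in S7HP+Snail, 16.22 in S7HP and 13.50 in LHP. The marker sums of several cell types differed between the groups. The summed level of 10 hepatocyte markers was 104435 to 210724 normalized counts in S7HP+Snail, 132466 to 396746 in S7HP and 32824 to 55864 in LHP. The sum of 8 stellate cell and fibroblast markers was 13443 to 21398 in S7HP+Snail, 6584 to 9602 in S7HP and 37296 to 52104 in LHP. In S7HP over LHP 5 of 10 hepatocyte markers rose and 0 fell (limma, 0 lower at an unadjusted p under 0.05), and 5 of 8 stellate and fibroblast markers fell and 0 rose (limma, 0 higher at an unadjusted p under 0.05). Of all genes tested 9.47% rose and 9.54% fell in this comparison. Biliary markers (5 genes) summed to 26897 to 332403 in S7HP+Snail, 52021 to 144344 in S7HP and 95687 to 184796 in LHP, and macrophage markers (7 genes) to 2885 to 4916, 2487 to 3626 and 3320 to 4052 in the same order. Spp1 was by far the highest of the 5 biliary genes, with means of 16.44, 16.34 and 16.67 in that order, so the biliary sums mainly reflect Spp1. The sum of 7 endothelial markers was 2860 to 4609 in S7HP+Snail, 1376 to 2683 in S7HP and 2902 to 4359 in LHP, so S7HP lay below both other groups. Pecam1 and Plvap, the highest of the 7 in each group, weigh most in this sum. In S7HP over LHP 1 of 7 endothelial markers fell, Plvap, by 2.01 (limma, Benjamini-Hochberg adjusted p = 0.00249). Of the 7, 5 had a negative change and 2 a positive one, Stab2 at 0.24 and Lyve1 at 0.55, neither called. In the same comparison 1 marker each of the biliary and macrophage lists fell. Of the 5 biliary markers 0 were called higher, while 1 was higher at an unadjusted p under 0.05 (limma, against 34.4% of all genes in either direction). In 3 biliary markers every S7HP tumor was above every LHP tumor (20.9% of all genes), and in 1 every one was below (21.3%). Neutrophil markers (3 genes) summed to 3397 to 31512 in S7HP+Snail, 6234 to 15516 in S7HP and 1315 to 9802 in LHP, with Mpo at 0 in all S7HP tumors and S100a8 and S100a9 not called in any comparison. In bulk samples fewer cells of a type and less RNA per cell cannot be told apart, and the part of cell makeup in the results below was not tested.

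**Figure D1:**
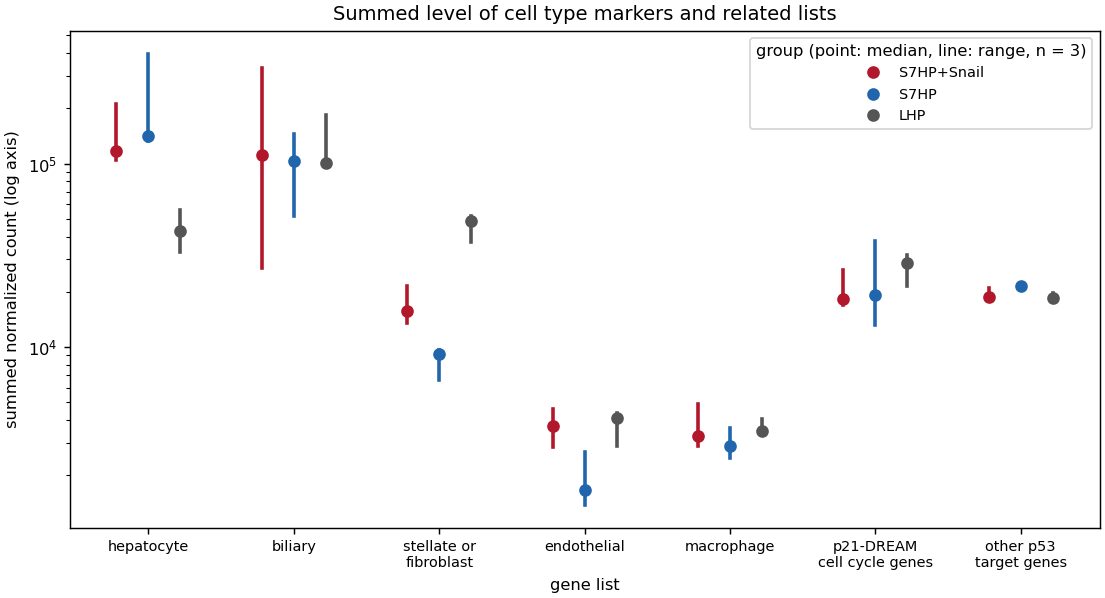
Summed normalized counts (log axis) of 5 cell type marker lists, of 18 cell cycle genes repressed through p21 and the DREAM complex, and of 34 other p53 target genes; points are medians and lines ranges over 3 tumors of a group. Hepatocyte marker sums lie above those of LHP in all S7HP+Snail and S7HP tumors, and stellate and fibroblast sums lie below them.

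Trp53 (chromosome 11, 69580359 to 69591873, + strand, GENCODE on GRCm38), which encodes p53, was at 5.21, 5.86 and 5.51 in S7HP+Snail tumors 13, 14 and 15, at 5.96, 6.26 and 6.53 in S7HP tumors 9, 11 and 12, and at 6.20, 6.63 and 6.28 in LHP tumors 2, 3 and 6. All 3 S7HP+Snail tumors lay below all 6 others, while S7HP and LHP overlapped. None of the differences passed the test. The log2 change was -0.12 ± 0.36 (SE) in S7HP over LHP, -0.73 ± 0.36 in S7HP+Snail over S7HP and -0.84 ± 0.36 in S7HP+Snail over LHP (limma, Benjamini-Hochberg adjusted p = 0.852, 0.332 and 0.18). These are transcript levels, and no protein was measured. By its mean over the 9 tumors Trp53 stood at the 54.5th percentile of all symbols, far below its inhibitors Mdm2 (94.7th) and Mdm4 (97.4th). That ranking includes symbols listed at 0. Its mean of 6.05 was below the median of the tested genes in every library (8.28 to 8.29). The assay reads only the 3′ end of a transcript, whatever its length, and the ranks compare such tag levels.

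Mdm2 (chromosome 10, 117688875 to 117710758, - strand), both the main inhibitor of p53 and one of its targets, was at 11.23, 11.18 and 11.38 in S7HP+Snail, at 10.67, 11.48 and 11.24 in S7HP and at 12.14, 11.43 and 11.47 in LHP. S7HP and LHP overlapped, and the S7HP+Snail tumors lay just under the LHP tumors. Changes were -0.55 ± 0.27 in S7HP over LHP, 0.13 ± 0.27 in S7HP+Snail over S7HP and -0.41 ± 0.27 in S7HP+Snail over LHP (SE; limma, Benjamini-Hochberg adjusted p = 0.186, 0.839 and 0.381). Centring the libraries on ribosomal protein genes, which stood 0.31 higher in S7HP than in LHP, turned the first of these into a call, at -0.85 (limma, Benjamini-Hochberg adjusted p = 0.0472, in a range of 0.0472 to 0.477 over 17 alternatives). Mdm4, which blocks the transactivation domain of p53, averaged 12.45 ± 0.63 in S7HP+Snail, 11.97 ± 0.19 in S7HP and 12.30 ± 0.06 in LHP (SD, n = 3 each), and no difference passed. The highest value of these 3 genes in any library was Mdm4 in S7HP+Snail tumor 14, at 13.12.

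Setting S7HP against LHP shows the members' levels with Smad7 and with Luc. Target genes moved both ways. Of 29 tested members 4 rose, namely Gdf15, Btg2, Bbc3 and Ddb2, 3 fell, namely Phlda3, Zmat3 and Rrm2b, and 22 did not pass. The share of members called, 24.1%, compares with 19.0% of all 14215 genes, of which 9.47% rose and 9.54% fell. The median change of the members was 0.12, against 0.02 over all genes tested, and the median size of change regardless of sign was 0.55, against 0.61. At an unadjusted p under 0.05, 7 members were higher and 4 lower, against 34.4% of all genes in either direction. In 8 members every S7HP tumor was above every LHP tumor (20.9% of all genes) and in 6 every one was below (21.3%), so 14 of 29 did not overlap, against 42.1% of all genes. These shares lie near those of all genes.

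**Figure D2:**
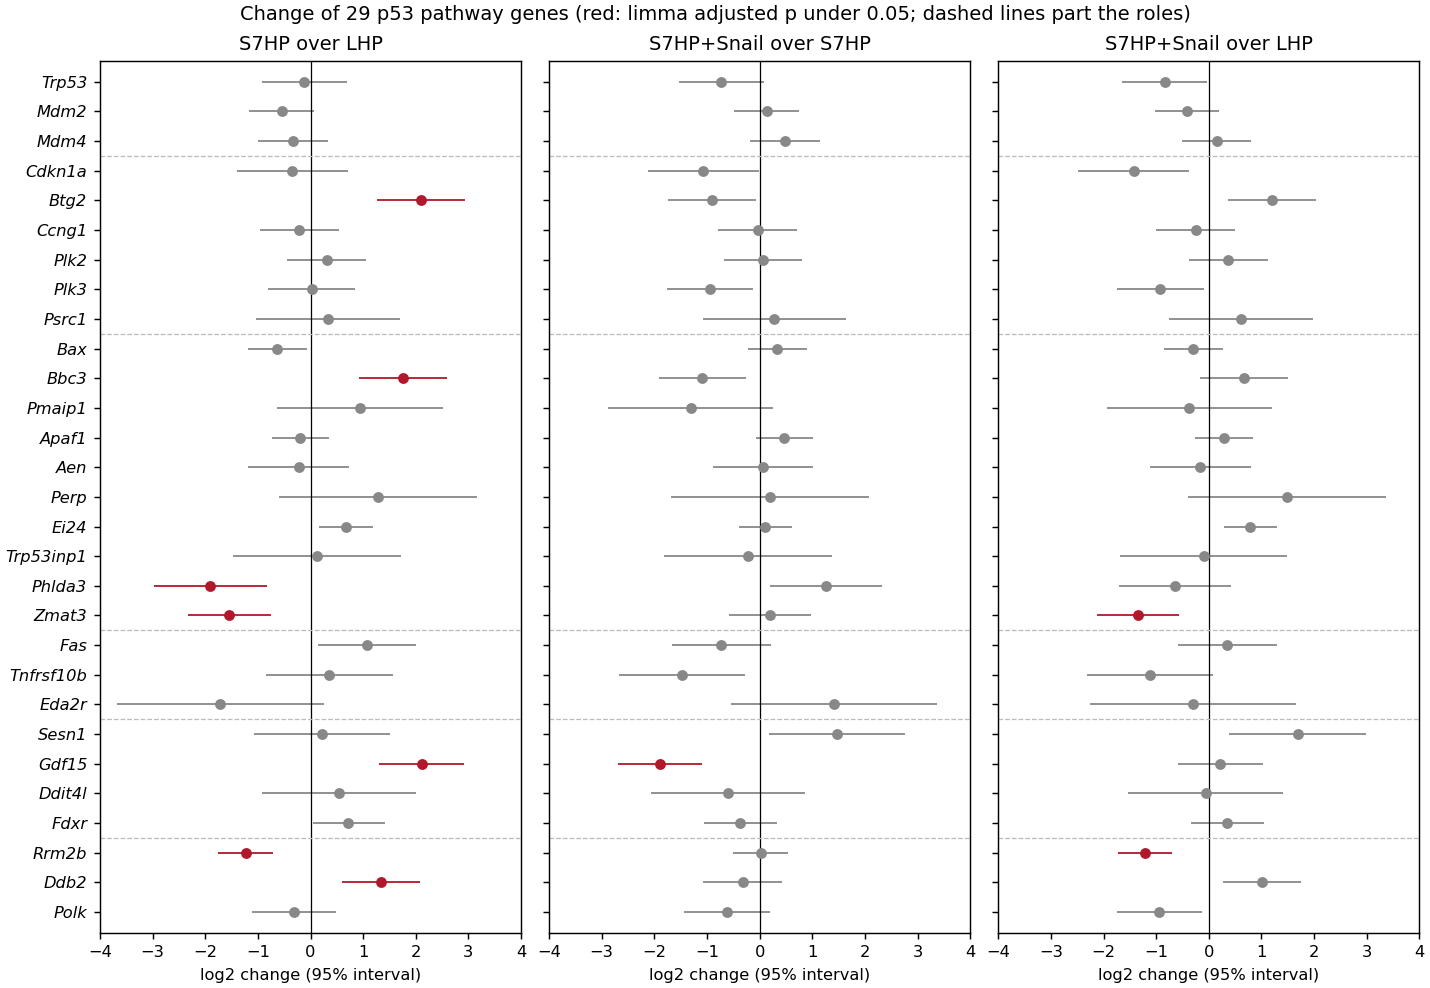
Log2 change of the 29 tested members with limma's 95% interval in 3 comparisons; red marks an adjusted p under 0.05 and dashed lines part the roles (p53 and inhibitors, growth arrest, apoptosis, death receptors, stress and metabolism, DNA repair). In S7HP over LHP 4 red points lie right of 0 and 3 left of it, and in the other comparisons 1 and 2 red points lie left of 0.

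Among the growth arrest genes, Cdkn1a (chromosome 17, 29090976 to 29100727, + strand), which encodes the cyclin-dependent kinase inhibitor p21, is the best known target of p53. It was at 9.68, 9.58 and 10.39 in S7HP+Snail, at 11.44, 10.00 and 11.44 in S7HP and at 10.80, 12.14 and 10.98 in LHP. S7HP and LHP overlapped, while the S7HP+Snail tumors lay under every LHP tumor and overlapped S7HP through S7HP tumor 11. The change in S7HP over LHP was -0.35 ± 0.47 (SE; 95% interval -1.40 to 0.71; limma, Benjamini-Hochberg adjusted p = 0.646).

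Btg2 (chromosome 1, 134075170 to 134079120, - strand), an antiproliferative gene also induced by growth factors, was at 9.75, 9.31 and 10.00 in S7HP+Snail, at 11.50, 10.11 and 10.17 in S7HP and at 8.75, 8.33 and 8.40 in LHP. The 3 groups did not overlap at all, with S7HP highest and LHP lowest. It rose by 2.10 ± 0.37 (SE) in S7HP over LHP, a 4.29-fold difference (limma, Benjamini-Hochberg adjusted p = 0.00606). The other growth arrest members did not pass in this comparison. Ccng1, the cyclin G1 gene, was at -0.21 ± 0.34, and the polo-like kinase gene Plk2 at 0.31 ± 0.33. The spindle protein gene Psrc1 was at 0.33 ± 0.61, with its lowest value, 4.27, in LHP tumor 3. Plk3 was at 0.02 ± 0.37, and its value is uncertain, since its 3′ end lies within Tctex1d4 on the opposite strand. The difference between the values of Plk3 and Tctex1d4 stayed between 0.20 and 0.42 in all 9 tumors, although Plk3 itself ranged over 1.84, and reads of the 2 genes cannot be told apart without knowing how strand was counted.

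Among the apoptosis genes, Bbc3 (chromosome 7, 16308393 to 16318205, + strand), which encodes PUMA, a BH3-only protein that releases Bax, was at 7.11, 7.98 and 7.35 in S7HP+Snail, at 8.38, 9.01 and 8.32 in S7HP and at 6.85, 7.33 and 6.26 in LHP. All S7HP tumors lay above all others, while S7HP+Snail and LHP overlapped. It rose by 1.76 ± 0.37 (SE) in S7HP over LHP, a 3.38-fold difference (limma, Benjamini-Hochberg adjusted p = 0.0115). Bax, the pore-forming effector downstream of PUMA, was at 10.36, 10.64 and 10.35 in S7HP and at 11.33, 11.15 and 10.77 in LHP. Those groups did not overlap, yet the change of -0.63 ± 0.25 did not pass (limma, Benjamini-Hochberg adjusted p = 0.106); centred on the ribosomal protein genes it was -0.94 and passed (limma, Benjamini-Hochberg adjusted p = 0.0347).

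Phlda3 (chromosome 1, 135766119 to 135769136, + strand), a pleckstrin homology protein that keeps the kinase AKT from the membrane, was at 8.70, 8.84 and 10.15 in S7HP+Snail, at 7.24, 8.58 and 8.08 in S7HP and at 9.60, 10.50 and 9.50 in LHP. S7HP tumors were the lowest, and S7HP+Snail tumor 15 reached into the LHP range. It fell by 1.90 ± 0.48 (SE) in S7HP over LHP (limma, Benjamini-Hochberg adjusted p = 0.0229), a call lost without LHP tumor 3 or S7HP tumor 9 (limma, adjusted p up to 0.0845). Zmat3 (chromosome 3, 32334792 to 32366014, - strand), an RNA-binding zinc finger gene, was at 8.27, 9.09 and 8.15 in S7HP+Snail, at 8.51, 8.37 and 8.04 in S7HP and at 10.51, 9.45 and 9.57 in LHP. All 6 tumors with Smad7 lay below all LHP tumors. It fell by 1.54 ± 0.35 (SE) in S7HP over LHP (limma, Benjamini-Hochberg adjusted p = 0.0157).

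The other apoptosis members did not pass. Pmaip1, which encodes the BH3-only protein NOXA, was at 0.94 ± 0.70, and Perp, a desmosomal membrane protein gene, at 1.29 ± 0.84, both in S7HP over LHP. Ei24, an endoplasmic reticulum membrane protein gene, was at 11.12, 11.01 and 10.63 in S7HP and at 10.25, 10.31 and 10.17 in LHP, without overlap, a change of 0.68 ± 0.22 in a gene whose 3′ end an antisense gene overlaps (limma, Benjamini-Hochberg adjusted p = 0.0624). Ei24 was called with array weights and without S7HP+Snail tumor 15, at 0.62 and 0.68 (limma, adjusted p = 0.0477 and 0.046). Apaf1, the scaffold of the apoptosome, was at -0.19 ± 0.24, the nuclease gene Aen at -0.22 ± 0.43, and Trp53inp1, a stress-induced nuclear protein gene, at 0.12 ± 0.71.

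None of the 3 death receptor genes passed in S7HP over LHP by limma, and 1 was higher at an unadjusted p under 0.05 (34.4% of all genes in either direction). That was Fas, at 7.30, 7.25 and 7.28 in S7HP and at 5.72, 5.77 and 7.11 in LHP, a change of 1.08 ± 0.42 (limma, Benjamini-Hochberg adjusted p = 0.0985). The S7HP tumors were close to each other, and LHP tumor 6 came near them. Without LHP tumor 6 Fas was called higher, at 1.53 (limma, adjusted p = 0.0338). Tnfrsf10b, the TRAIL receptor gene, was at 0.36 ± 0.54, and Eda2r, the receptor gene for ectodysplasin A2, at -1.71 ± 0.88, with values of 4.66, 4.97 and 3.54 in S7HP and 7.38, 5.44 and 5.49 in LHP.

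Gdf15 (chromosome 8, 70629393 to 70632456, - strand) encodes a secreted stress hormone that p53 and other stress pathways induce. It was at 10.01, 9.65 and 10.86 in S7HP+Snail, at 12.16, 12.35 and 11.69 in S7HP and at 10.50, 9.61 and 9.75 in LHP. All 3 S7HP tumors stood above all 6 others, and S7HP+Snail and LHP overlapped. It rose by 2.11 ± 0.36 (SE) in S7HP over LHP, a 4.33-fold difference (limma, Benjamini-Hochberg adjusted p = 0.0049). Fdxr, the mitochondrial ferredoxin reductase gene, was at 6.65, 6.96 and 6.61 in S7HP and at 5.98, 5.99 and 6.09 in LHP, without overlap, at 0.72 ± 0.31 without passing (limma, Benjamini-Hochberg adjusted p = 0.128). The mTORC1 inhibitor genes Sesn1 (0.21 ± 0.58) and Ddit4l (0.54 ± 0.66) did not pass either. Sesn2, another sestrin gene, was not tested, with values between 0.00, in LHP tumor 6, and 4.91, in S7HP tumor 12.

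The DNA repair genes split. Ddb2 (chromosome 2, 91211572 to 91236982, - strand), which recognizes ultraviolet damage for nucleotide excision repair, was at 6.81, 7.38 and 7.45 in S7HP+Snail, at 7.98, 7.47 and 7.15 in S7HP and at 6.25, 6.38 and 5.97 in LHP. All 6 tumors with Smad7 lay above all LHP tumors. It rose by 1.33 ± 0.33 (SE) in S7HP over LHP (limma, Benjamini-Hochberg adjusted p = 0.0226). The call was lost when the libraries were centred on the ribosomal protein genes and whenever any of 5 tumors was left out, namely LHP 2, 3 and 6 and S7HP 9 and 11 (limma, adjusted p up to 0.0828), and its value is uncertain, since its 3′ end lies within Acp2 on the opposite strand (Ddb2 minus Acp2 was between -3.43 and -1.71). Rrm2b (chromosome 15, 37923952 to 37961318, - strand), the ribonucleotide reductase subunit that supplies nucleotides for repair, was at 7.90, 8.06 and 7.71 in S7HP+Snail, at 7.89, 7.66 and 8.08 in S7HP and at 9.19, 8.96 and 9.17 in LHP. All 6 tumors with Smad7 lay below all LHP tumors, and the tumors of a group lay close together. Rrm2b fell by 1.23 ± 0.23 (SE) in S7HP over LHP (limma, Benjamini-Hochberg adjusted p = 0.00744). Polk, a polymerase gene for damaged templates, was at -0.32 ± 0.36 without passing.

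**Figure D3:**
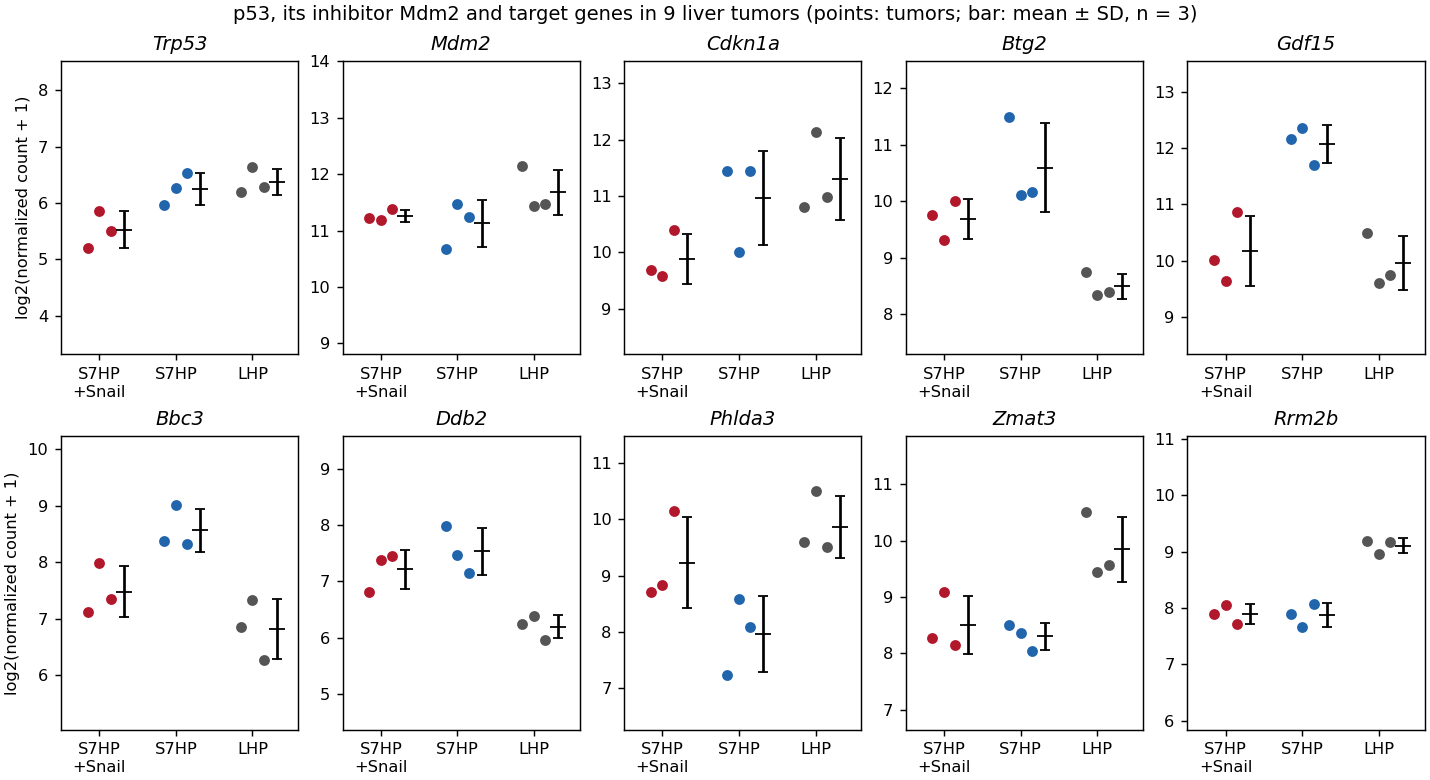
Log2(normalized count + 1) in each tumor for p53, Mdm2, Cdkn1a and the 7 members called in any comparison; every panel spans the same height, and bars show mean ± SD over 3 tumors. Gdf15 and Bbc3 have S7HP above both other groups, while Rrm2b and Zmat3 have LHP above both other groups.

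Setting S7HP+Snail against S7HP shows the members' levels with and without the added Snail, and shares the S7HP tumors with the comparison above. By limma 1 of 29 members fell, Gdf15, and 0 rose, while 2 were higher and 6 lower at an unadjusted p under 0.05 (17.8% of all genes in either direction). The share called was 3.45%, against 2.30% of all genes, of which 1.01% rose and 1.29% fell. The median change of the members was -0.04 and that of all genes tested -0.02. All 7 endothelial markers had a positive change, 4 of them at an unadjusted p under 0.05, and Plvap was called higher at 1.45 (limma, Benjamini-Hochberg adjusted p = 0.0382). Of the hepatocyte, stellate and fibroblast markers 0 were called (limma; 2 hepatocyte markers lower and 2 stellate or fibroblast markers higher at an unadjusted p under 0.05). Gdf15 fell by 1.89 ± 0.36 (SE) with Snail (limma, Benjamini-Hochberg adjusted p = 0.029). The call was lost in 8 of 17 alternatives, among them those that omitted S7HP+Snail 13 or 14, any S7HP tumor, or LHP 6, with an adjusted p between 0.015 and 0.112 (limma).

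Another 7 members differed by more than 1 on the log2 scale without passing, namely Cdkn1a, Bbc3, Tnfrsf10b, Phlda3, Eda2r, Pmaip1 and Sesn1. Cdkn1a was at -1.08 ± 0.47, Bbc3 at -1.09 ± 0.37 and Tnfrsf10b at -1.48 ± 0.54 (SE; limma, Benjamini-Hochberg adjusted p = 0.273, 0.161 and 0.186). Phlda3 was at 1.26 ± 0.48, without overlap between the groups, and Eda2r at 1.41 ± 0.88, with overlap (limma, Benjamini-Hochberg adjusted p = 0.204 and 0.442). Btg2 was at -0.90 ± 0.37, without overlap (limma, Benjamini-Hochberg adjusted p = 0.241). In 1 member every S7HP+Snail tumor was above every S7HP tumor (9.53% of all genes) and in 7 every one was below (11.0%), so 8 of 29 did not overlap, against 20.5% of all genes.

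The spread within S7HP+Snail was wide for several members. Perp was at 10.73, 6.90 and 8.72 in tumors 13, 14 and 15, with S7HP at 9.31, 8.24 and 8.20. Tumor 13 held the highest Perp of all 9 libraries and tumor 14 a value below all S7HP tumors. Pmaip1 was at 9.18, 6.54 and 6.32 in S7HP+Snail, with S7HP at 8.76, 7.98 and 9.23, so tumor 13 lay within the S7HP range while tumors 14 and 15 lay below all other libraries. Sesn1, a sestrin gene, was at 7.36, 10.05 and 8.89 in S7HP+Snail, with S7HP at 7.73, 6.99 and 7.17. Its change of 1.47 ± 0.58 did not pass (limma, Benjamini-Hochberg adjusted p = 0.22). Without S7HP+Snail tumor 13 Sesn1 was called higher at 2.17 and Pmaip1 lower at -2.23 (limma, adjusted p = 0.0355 and 0.0398).

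Tumor 14 held the lowest Tnfrsf10b, at 6.13 against 7.85 and 8.63 in tumors 13 and 15, and a low Eda2r, at 3.90 against 6.36 and 7.16. Over the 29 tested members the median SD within a group was 0.51 in S7HP+Snail, 0.41 in S7HP and 0.33 in LHP, against 0.45, 0.41 and 0.35 over all tested genes in the same groups. Relative to each gene's mean over 9 tumors, 10 of 29 members were above it in tumor 13, 14 in tumor 14 and 17 in tumor 15. The counts were 16, 16 and 15 in S7HP tumors 9, 11 and 12, and 17, 13 and 15 in LHP tumors 2, 3 and 6. The median deviation of the members from that mean was lowest in tumor 13, at -0.35, against -0.04 over all tested genes in that tumor. In every tumor some members were above their mean and others below it.

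**Figure D4:**
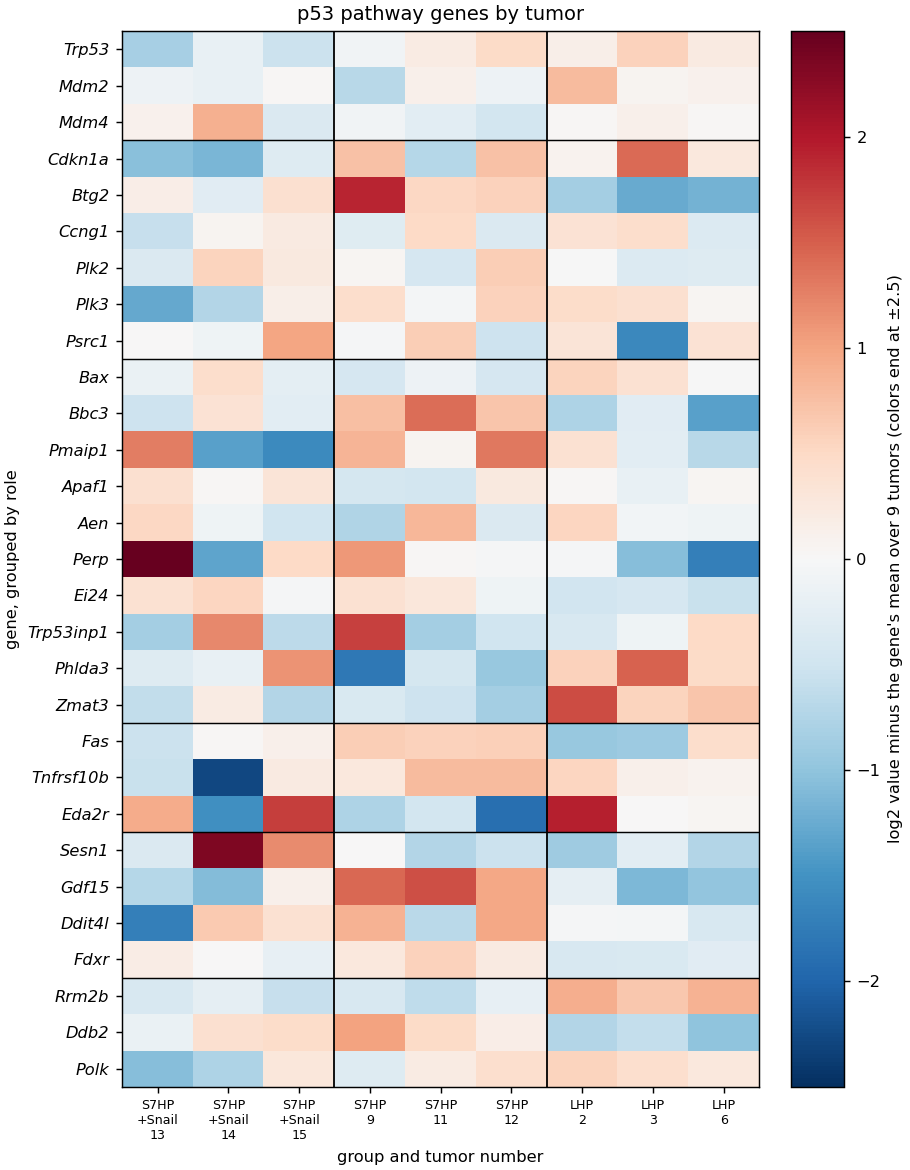
Log2 value of each tested member minus its mean over the 9 tumors, with tumors in columns by group and genes in rows by role; red is above the mean and blue below it. Colors change sign from row to row within every tumor, and the strongest single cells are Perp in S7HP+Snail tumor 13 and Sesn1 and Tnfrsf10b in S7HP+Snail tumor 14.

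Set against LHP, the S7HP+Snail tumors had 2 members lower by limma, Rrm2b and Zmat3, and 0 higher, with 4 higher and 6 lower at an unadjusted p under 0.05 (25.1% of all genes in either direction). The 6.9% called compares with 7.22% of all genes, of which 3.35% rose and 3.87% fell. In 4 members every S7HP+Snail tumor was above every LHP tumor (14.7% of all genes) and in 5 every one was below (15.8%). The members' median change was -0.10, against -0.00 over all genes. Here 3 of 10 hepatocyte markers rose and 3 of 8 stellate and fibroblast markers fell. At an unadjusted p under 0.05, 0 hepatocyte markers were lower and 1 stellate or fibroblast marker was higher (limma). That was Pdgfra, at 2.01 and without overlap (limma, Benjamini-Hochberg adjusted p = 0.0872). This comparison shares its tumors with the other 2. Rrm2b fell by 1.21 ± 0.23 and Zmat3 fell by 1.34 ± 0.35 (SE; limma, Benjamini-Hochberg adjusted p = 0.0168 and 0.0495). Rrm2b was no longer called with any 1 LHP tumor left out (limma, adjusted p up to 0.0707). Zmat3 was no longer called in 13 of 17 alternatives, including leaving out any 1 library but S7HP+Snail tumor 14 (limma, adjusted p between 0.0276 and 0.135).

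For Gdf15 the change in S7HP+Snail over LHP was 0.22 ± 0.36, with a 95% interval of -0.58 to 1.02. Bbc3 was at 0.67 ± 0.37 (interval -0.16 to 1.50), Btg2 at 1.20 ± 0.37 and Ddb2 at 1.01 ± 0.33 (SE; limma, Benjamini-Hochberg adjusted p = 0.297, 0.0844 and 0.0977). Cdkn1a was at -1.42 ± 0.47, lower in all 3 tumors than in every LHP tumor, without passing (limma, Benjamini-Hochberg adjusted p = 0.0997). Btg2 was called higher at 1.20 without S7HP tumor 9 and with only the 6 libraries compared (limma, adjusted p = 0.0274 and 0.0498). Sesn1 was at 1.69 ± 0.58 (limma, Benjamini-Hochberg adjusted p = 0.107), and without S7HP+Snail tumor 13 it passed at 2.39 (limma, adjusted p = 0.0172). Without S7HP+Snail tumor 15 Plk3, Polk and Ei24 were called as well, at -1.30, -1.34 and 0.95 (limma, adjusted p = 0.0479, 0.0346 and 0.0452), while Zmat3 was not. The limits given above for the 3′ ends of Plk3, Ei24 and Ddb2 hold here too.

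A further 34 genes reported as p53 targets, none of them among the 30, gave 31 tested. In S7HP over LHP 4 rose and 1 fell, or 16.1% called against 19.0% of all genes, and the median change was -0.08, against 0.02 over all genes. Fbxo22, an F-box gene, rose by 1.90, Ptp4a1, a phosphatase gene, by 1.75, the glutaminase gene Gls2 by 1.17 and Tgfa, a ligand of the EGF receptor, by 2.92. Ak1, an adenylate kinase gene, fell by 3.32 (limma, Benjamini-Hochberg adjusted p = 0.00605, 0.0012, 0.0159, 0.019 and 0.00794 in the order named). Tgfa averaged 7.20 in S7HP and 4.28 in LHP, the latter near the filter value of 4. With a pseudocount of 8 its change was 2.49, so its size is uncertain. Gls2 was no longer called with the libraries centred on the ribosomal protein genes or with LHP 3, LHP 6 or S7HP 9 left out, nor Tgfa with LHP 6, S7HP 9 or S7HP 12 left out (limma, adjusted p up to 0.127 and 0.0644).

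Of those 31, in S7HP+Snail over S7HP, 2 fell and 0 rose by limma (1 higher and 6 lower at an unadjusted p under 0.05, against 17.8% of all genes in either direction), with a median change of -0.19. The share called was 6.45%, against 2.30% of all genes, and the median over all genes was -0.02. There, Tgfa fell by 3.63 and Ptp4a1 fell by 1.03 (limma, Benjamini-Hochberg adjusted p = 0.0312 and 0.0429). Tgfa averaged 3.56 in S7HP+Snail, under the filter value of 4, so the size of its fall is uncertain. Tgfa was lost in 6 of 17 alternatives, among them the omission of S7HP+Snail 13, any S7HP tumor or LHP 2, and Ptp4a1 in 13, among them the omission of any library but LHP 2 (limma, adjusted p up to 0.107 and 0.153). With S7HP+Snail set against LHP 0 rose and 1 fell by limma (2 higher and 5 lower at an unadjusted p under 0.05, against 25.1% of all genes in either direction), or 3.23% called against 7.22% of all genes, with a median change of -0.17. The metalloreductase gene Steap3 fell by 2.02 (limma, Benjamini-Hochberg adjusted p = 0.0462), a call lost in 11 of 17 alternatives, among them the omission of any S7HP+Snail tumor, S7HP 11 or 12, or LHP 2 or 3 (limma, adjusted p up to 0.148).

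Upstream of p53, 28 regulator genes were listed and all were tested. In S7HP over LHP 2 rose and 2 fell, or 14.3% called against 19.0% of all genes, with a median change of 0.05. Trim24, a ubiquitin ligase gene for p53, rose by 0.96, and Rpl11, a ribosomal protein gene whose product can bind Mdm2 and which has processed copies in the genome that make its level uncertain, rose by 0.96. Ep300, an acetyltransferase gene and coactivator of p53, fell by 1.31, and Ppp1r13l, which encodes the p53 inhibitor iASPP, fell by 2.34 (limma, Benjamini-Hochberg adjusted p = 0.00787, 0.0409, 0.0119 and 0.0164 in the order named). Centred on the ribosomal protein genes, Trim24 and Rpl11 were no longer called (limma, adjusted p = 0.112 and 0.119). Rpl11 was lost in 8 of 17 alternatives, among them without LHP tumor 3 or 6 or when any 1 S7HP tumor was left out (limma, adjusted p up to 0.138), and Ppp1r13l when any 1 LHP tumor was left out, or S7HP tumor 9 or 11 (limma, adjusted p up to 0.0588).

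Of the 28 regulators in S7HP+Snail over S7HP, 0 were called by limma, with 1 higher and 1 lower at an unadjusted p under 0.05 (17.8% of all genes in either direction) and a median change of -0.01, while 2.30% of all genes were called. Against LHP, S7HP+Snail had 1 higher, Trim24 (0.94), and 2 lower, Ppp1r13l (-2.80) and the kinase gene Hipk2 (-1.24; limma, Benjamini-Hochberg adjusted p = 0.0188, 0.0176 and 0.0468 in the order named), or 10.7% called against 7.22% of all genes, with a median change of -0.03. Trim24 and Ppp1r13l were no longer called when any 1 LHP tumor was left out (limma, adjusted p up to 0.0724 and 0.0691), nor was Trim24 when centred on the ribosomal protein genes (limma, adjusted p = 0.119). Hipk2 was lost in 11 of 17 alternatives, among them the omission of S7HP+Snail 14 or 15, of S7HP 9 or 12 and of any LHP tumor (limma, adjusted p up to 0.148). Cdkn2a, named here after its values were seen, encodes p16 and, in another frame, ARF, which binds Mdm2. It was at 15.64, 16.05 and 16.62 in S7HP+Snail, at 14.85, 15.41 and 15.94 in S7HP and at 15.60, 14.86 and 14.07 in LHP. It ranked 23rd of all 24421 symbols by its mean, and no comparison passed. A 3′ tag does not tell p16 from ARF, since their transcripts share the last exons. The p53 relatives Trp63 and Trp73 did not pass the filter, with Trp63 listed at 0 in all LHP tumors and highest in S7HP+Snail tumor 13, at 5.57.

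Through p21 the pathway also represses cell cycle genes by way of the DREAM complex. Of 18 such genes, all tested, 1 fell in S7HP over LHP and 0 rose by limma (0 higher and 2 lower at an unadjusted p under 0.05, against 34.4% of all genes in either direction), or 5.56% called against 19.0% of all genes, with a median change of -0.54, against 0.02 over all genes. The same list had 0 called by limma in S7HP+Snail over S7HP, and 0 had an unadjusted p under 0.05 (17.8% of all genes), with a median of -0.05, while 2.30% of all genes were called. In S7HP+Snail over LHP 1 fell and 0 rose by limma (1 higher and 4 lower at an unadjusted p under 0.05, against 25.1% of all genes in either direction), or 5.56% called against 7.22% of all genes, with a median of -0.66, and 11 of 18 were lower in all S7HP+Snail tumors than in every LHP tumor, against 15.8% of all genes. Cdk1 alone was higher in all S7HP+Snail tumors than in every LHP tumor. The count lower without overlap was 2 of 18 in S7HP over LHP (21.3% of all genes). It was 0 of 18 in S7HP+Snail over S7HP (11.0% of all genes). The gene called in both comparisons with LHP was E2f1, a transcription factor of S phase entry, at -1.60 in S7HP over LHP and -1.58 in S7HP+Snail over LHP (limma, Benjamini-Hochberg adjusted p = 0.0072 and 0.0165), the S7HP+Snail call being lost without LHP tumor 3 or 6 (limma, adjusted p up to 0.0674).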

How the data were processed

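RNA input for the QuantSeq 3′ libraries was 500 ng, per the labels' protocols. Bowtie2, edgeR and the build mm10 are named, without versions or roles, per the submitters' processing notes; for the annotation, counting tool and strand setting, the entry is "not given in the sources used here". What the authors deposited is log2(quantile-normalized count + 1), judged from the values: 9 times the unlogged value is whole (tolerance 0.001, wider for large values) and totals are nearly equal.

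A gene was tested where 3 or more libraries had a log2 value of 4 or higher. All 9 libraries were fitted in limma 3.58.1 (R 4.3.3; lmFit, eBayes with trend and robust variances, 6 residual degrees of freedom), two-sided, with a call at 0.05 on p-values adjusted by Benjamini-Hochberg over 14215 genes. The procedure was run on simulated data with independent normal errors, which do not copy the normalization or cell makeup of these tumors. Errors are limma's SE or the SD over 3 tumors. Count tests were not run, since the values are not counts. Alternatives changed the filter, pseudocount, scaling, variance model, library weights and libraries. The members and lists were chosen with earlier results of these data known. Named were Trp53, Cdkn1a, Mdm2, every called member, and up to 4 called genes per other list and comparison with the smallest adjusted p; other members are given by value where a statement needs one. Of 138 list entries 135 matched a symbol. Coordinates are from GENCODE mouse release M21, and promoters from RefSeq, both on GRCm38, which mm10 names. Figures used matplotlib 3.10.9.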

Additional observations from a re-analysis of the deposited data

How the results depend on the processing

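Each count and named change was recomputed under 17 alternatives, with no change of sign for any called value. In S7HP over LHP the members called higher stayed between 3 and 5 and those called lower between 2 and 5, the 5 being found with the libraries centred on the ribosomal protein genes, which added Mdm2 and Bax and dropped Ddb2. That scaling moved the split over all genes to 640 higher and 1590 lower, from 1346 and 1356. Ribosomal protein genes differed by 0.31 in S7HP over LHP, by -0.17 in S7HP+Snail over S7HP and by 0.14 in S7HP+Snail over LHP. In S7HP+Snail over S7HP the count called lower was 0 without trend and robust variances and with only the 6 libraries compared, and 0 to 1 when 1 library was left out, as was the count called higher. In S7HP+Snail over LHP the count called lower was 1 with no filter, centred on the median of the tested genes, without trend and robust variances, with array weights and with only the 6 libraries compared, and 0 to 3 when 1 library was left out. The count called higher was 1 with only the 6 libraries compared, Btg2, and 0 to 1 when 1 library was left out. Over all genes the calls in S7HP over LHP were 1465 to 3163 with 1 library left out, those in S7HP+Snail over S7HP 63 to 451 and those in S7HP+Snail over LHP 293 to 1049. Of 799 recomputed values of named genes 693 kept their side of the threshold, 103 lost a call and 3 gained one. The 693 include changes that were not called to begin with, such as those of Trp53. Centring on the median of the tested genes could change little, since library medians already lay between 8.2772 and 8.2869. Where a call was lost the cause was not tested, except that leaving out a library leaves fewer samples. A match to the full p53 consensus was found in 2 members with at most 1 mismatch as well. Wider windows were not run, since no genome was used here. No paired analysis was possible because tumor numbers are not shared between groups. With 3 tumors a group and depth not preserved, members with small changes were not distinguishable from no change.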
